A study of Mus musculus with 2 samples.

Results

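The *Hox* genes encode homeodomain transcription factors that give cells their position along the body axis. In mouse they lie in 4 clusters, *HoxA* to *HoxD*, in which all genes are transcribed in the same direction and carry a paralog number from 1, at the anterior end, to 13, at the posterior end. Their order along the chromosome matches the order in which they are switched on and the body level they specify, a property called colinearity. Anterior genes such as *Hoxb1* and *Hoxa3* respond to retinoic acid and mark progenitors of the second heart field and the neural crest that reaches the outflow tract, whereas posterior genes pattern the trunk, the limbs and the genital tubercle. In cells that do not express them, the clusters are known for being covered by Polycomb repression.

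All protein-coding genes whose symbol is *Hoxa*, *Hoxb*, *Hoxc* or *Hoxd* followed by a number were taken from GENCODE M21 (GRCm38/mm10), which gave 39 of 21938 protein-coding genes, 11 in *HoxA*, 10 in *HoxB*, 9 in *HoxC* and 9 in *HoxD*. Their accessibility was read from ATAC-seq, in which a transposase inserts sequencing adapters into open chromatin, of whole hearts of wildtype (WT) FVB mouse embryos at E11.5. Each of the 2 replicates was made from 2 hearts, and together they form a single group, so conditions were not compared and no test was run. The deposited lists hold 118027 peaks in replicate 1 and 114783 in replicate 2, each with a fold enrichment, which is the read pileup at the peak summit over the background that the authors' peak caller estimated. A shared region is the part of a replicate 1 peak that a replicate 2 peak covers, and its mean fold enrichment averages both replicates. Because whole hearts mix many cell types, open chromatin in few cells and weak opening in many cells cannot be told apart.

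Genes of the labelled tissue carried shared regions. Within 1 kb of a start, where 67.6% of all protein-coding genes had one, all 7 heart muscle genes examined did, with a mean fold enrichment of 5.10 for *Tbx5* to 24.0 for *Actc1*, as did 4 of 4 endothelial, 4 of 4 epicardial and 4 of 4 blood genes. Of genes of tissues outside the heart, a shared region was found at 1 of 3 for skeletal muscle, 2 of 4 for neural tissue, 2 of 3 for limb and 3 of 3 for endoderm. The levels of these genes overlapped those of the heart genes, from 3.38 for *Pitx1*, a limb gene, to 10.2 for *Foxa2*, an endoderm gene, and 20.2 for *Pax6*, a neural gene.

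A leading region of each cluster is given here by the 121 bases around the replicate 1 summit, read from the GRCm38 reference, which is C57BL/6J and not FVB. These sequences are shown because their base composition returns below, and capitals mark each CpG dinucleotide.
*HoxA*, upstream of *Hoxa4*, chr6:52191935-52192055, plus strand: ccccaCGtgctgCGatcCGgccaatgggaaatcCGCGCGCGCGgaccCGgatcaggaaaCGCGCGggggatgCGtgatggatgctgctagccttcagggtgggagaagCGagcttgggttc
*HoxB*, between *Hoxb5* and *Hoxb4*, chr11:96311756-96311876, plus strand: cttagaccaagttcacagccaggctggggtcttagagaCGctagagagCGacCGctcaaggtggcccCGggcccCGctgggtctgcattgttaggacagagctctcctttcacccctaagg
*HoxC*, intron of *Hoxc6*, chr15:102999289-102999409, plus strand: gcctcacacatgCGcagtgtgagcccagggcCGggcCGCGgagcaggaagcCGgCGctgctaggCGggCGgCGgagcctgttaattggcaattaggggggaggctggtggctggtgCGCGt
*HoxD*, upstream of *Hoxd10*, chr2:74691588-74691708, plus strand: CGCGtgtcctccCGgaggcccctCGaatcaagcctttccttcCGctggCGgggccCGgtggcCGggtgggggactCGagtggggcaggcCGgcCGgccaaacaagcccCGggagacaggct
These 4 sequences held 5 to 14 CpG dinucleotides, with 66.1% G and C at *Hoxa4*, 60.3% in *HoxB*, 70.2% at *Hoxc6* and 73.6% at *Hoxd10*.

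Of the 39 *Hox* genes, 17 (43.6%) had a shared region within 1 kb of a start, compared with 67.6% of all protein-coding genes. Replicate 1 alone had a peak at 21 *Hox* genes, against 68.8% of all genes, and replicate 2 alone at 18, against 68.6%. A further 5 *Hox* genes had a peak in 1 replicate, and 17 had none in either. The regions that were found were weak. Their median mean fold enrichment was 5.26, whereas the 14820 protein-coding genes with a shared region had a median of 24.5 with quartiles of 14.2 and 33.5. No *Hox* gene reached a mean fold enrichment of 10. Regions at *Hox* starts were also short, with a median of 389 bp against 1351 bp for all genes. With q-values of at most 1e-10 required in both replicates, 3 *Hox* genes (7.69%) kept a region, *Hoxa4* and *Hoxa13* among them, while 62.6% of all genes did.

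The gap was wider among genes with CpG-rich starts. These made up 21 of the 39 *Hox* genes (53.8%) and 40.1% of all genes, with CpG-rich defined as at least 55% G and C and a CpG ratio of observed to expected of at least 0.6 over 1 kb around the principal start. Of the 21, 10 (47.6%) had a shared region. Among all CpG-rich genes the share was 95.8%. At q-values of at most 1e-10, 3 of the 21 CpG-rich *Hox* genes (14.3%) had a region, against 93.1% of all CpG-rich genes. *Hox* genes with a region and those without had a similar base composition, with a median of 60.1% and 56.4% G and C and a median CpG ratio of 0.704 and 0.684. Composition was measured at the principal start, whereas the regions of *Hoxa7*, *Hoxb3* and *Hoxc6* lay near other starts. Of the 18 *Hox* genes whose start was not CpG-rich, 7 (38.9%) had a region, against 48.7% of such genes in all, and none of the 18 had one at q-values of at most 1e-10, against 42.1%. Between 96.8% and 100% of the 50-base words in the windows of each *Hox* gene occur at 1 place in the reference, and the lowest value among genes without a region was 97.7%.

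**Figure D1:**
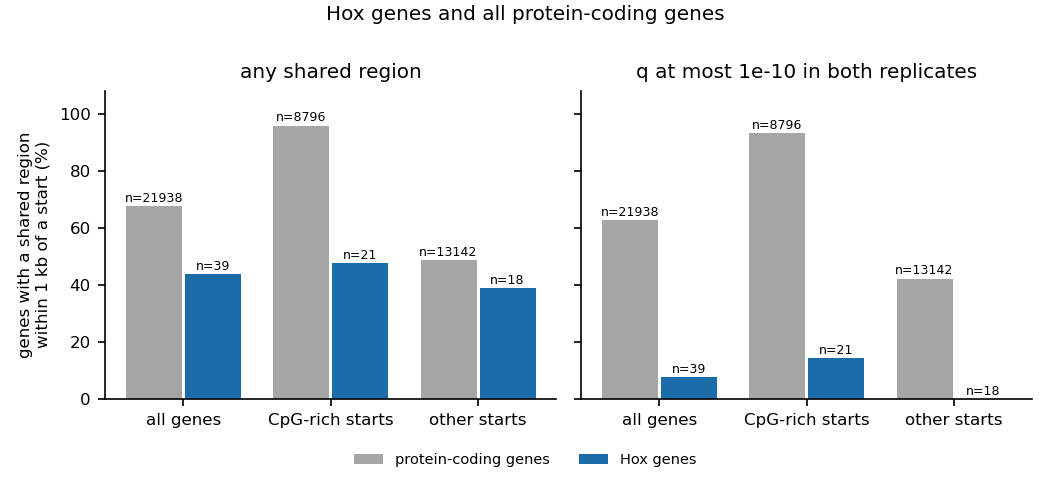
Percent of genes with a shared region within 1 kb of a start (vertical axis), for all protein-coding genes (grey) and *Hox* genes (blue), by CpG class of the principal start, with the number of genes above each bar. The left panel takes every shared region and the right panel those with q-values of at most 1e-10 in both replicates. CpG-rich *Hox* genes reach 47.6% and 14.3% where all CpG-rich genes reach 95.8% and 93.1%.

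*HoxA* had shared regions at 5 of 11 genes. *Hoxa4*, a gene of the neck vertebrae, was enriched 8.96-fold in replicate 1 and 6.79-fold in replicate 2, in a region (chr6:52191827-52192225) that began 74 bp upstream of its start. *Hoxa13*, a gene of digits and the genital tubercle, had 6.52 and 6.03 at its start, and *Hoxa7* had 7.06 and 5.03 at an upstream alternative start. *Hoxa5*, which is needed in the lung and the neck vertebrae, was the lowest gene with a shared region, with 3.53 and 3.52 in a coding exon 713 bp from the start.

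*Hoxa2*, which patterns the second pharyngeal arch, had a peak of 3.77 in replicate 2 only, and *Hoxa9* and *Hoxa10* had peaks of 3.53 and 3.80 in replicate 1 only. No peak lay within 1 kb of a start of *Hoxa3*, *Hoxa6* or *Hoxa11*, a gene of the forearm. The nearest region to *Hoxa3*, a gene of the third pharyngeal arch, lay 1222 bp from a start and so just outside the window, whereas the region of *Hoxc6* lay 842 bp away and just inside it. The *Hoxa3* region had 9.24 in replicate 1 and 3.77 in replicate 2, the largest disagreement between replicates in the clusters.

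*HoxB* had the fewest genes with a shared region, 2 of 10. *Hoxb4*, a gene of the neck vertebrae and of blood progenitors, had 5.98 and 4.27 in a region that began 171 bp inside its transcript, and *Hoxb3* had 4.35 and 3.77 at an internal alternative start and none at its principal start. *Hoxb1*, which is known for its expression in progenitors of the second heart field, had no peak in either replicate of these whole hearts, and neither did *Hoxb2*. The same was true of *Hoxb5*, *Hoxb6*, *Hoxb7*, *Hoxb8*, *Hoxb9* and *Hoxb13*. No *HoxB* gene was called in 1 replicate only.

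*HoxC*, which lacks paralogs 1 to 3, had shared regions at 5 of 9 genes. *Hoxc6*, a gene of the thoracic level, had 5.70 and 6.03 in an intron near an upstream alternative start, and *Hoxc5* had 5.16 and 4.78 at its start. *Hoxc4* had 4.07 and 5.28 over its coding exon. At the posterior end, *Hoxc13*, a gene of hair follicles and nails, had 6.25 and 4.27 in a region 144 bp upstream of the start, and *Hoxc10*, of the lumbar level, had 4.07 and 3.27. The order of *Hoxc4* and *Hoxc13* was therefore opposite in the replicates. *Hoxc8*, *Hoxc9*, *Hoxc11* and *Hoxc12* had no peak within 1 kb of a start in either replicate.

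*HoxD* also had 5 of 9, at both ends and in the middle of the cluster. *Hoxd10* and *Hoxd9*, genes of the limb and the lumbar level, had 7.06 and 5.53 and 6.25 and 4.53. *Hoxd1*, at the anterior end, had 5.70 and 6.28, so that the order of *Hoxd10* and *Hoxd1* was opposite in the replicates. The region of *Hoxd1* also held the start of the long noncoding RNA *Haglr*. *Hoxd13*, which patterns digits together with *Hoxa13*, had 5.43 and 4.02. For *Hoxd8*, with 4.07 and 4.53, the region was a 134 bp overlap of 2 peaks whose summits lay 654 bp apart. *Hoxd3* and *Hoxd4* had peaks of 4.07 and 3.53 in replicate 1 only, and *Hoxd11* and *Hoxd12* had none.

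**Figure D2:**
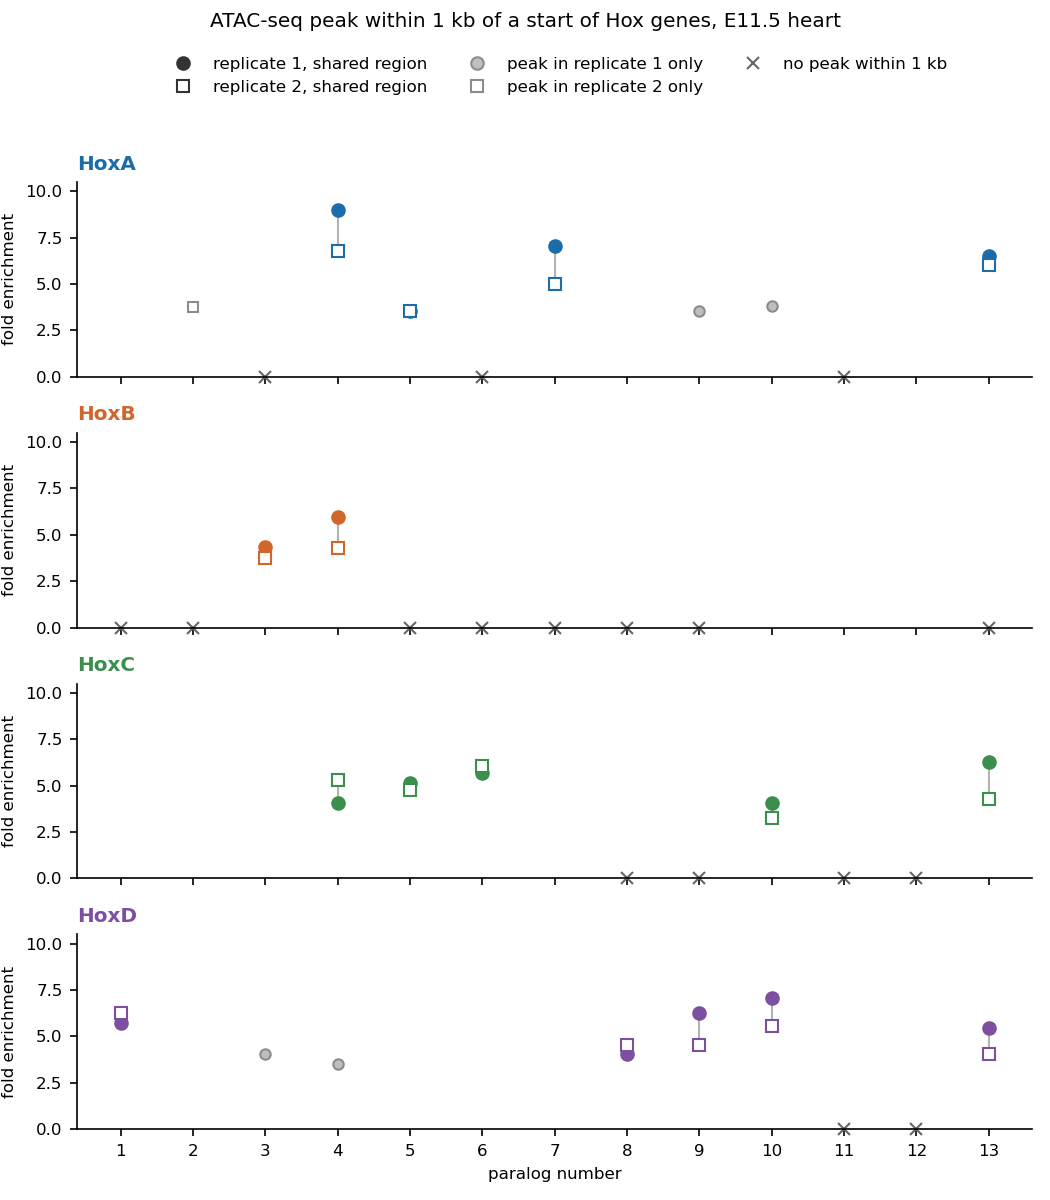
Fold enrichment (vertical axis) of the highest shared region within 1 kb of a start of *Hox* genes, by paralog number (horizontal axis) and cluster, with filled circles for replicate 1 and open squares for replicate 2. Grey symbols are peaks of 1 replicate only and crosses mark genes with no peak. No value shown reaches 10, and *HoxB* has shared regions only at paralogs 3 and 4.

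The spread between replicates set which of these values could be told apart. Over all protein-coding genes with a shared region, the log2 difference between replicates had an SD of 0.21, and 2 genes were called separable where they differed in the same direction in both replicates and by more than the 95% range of a mean of 2 replicates with this SD, a 1.23-fold difference. By this rule 77 of the 136 pairs of *Hox* genes with a region were separable. *Hoxd10*, *Hoxd1* and *Hoxd9* were not separable from each other. Of the 16 neighbouring pairs in the order of mean fold enrichment, 1 was separable. Genes with a mean fold enrichment under 10 varied more, with an SD of 0.35, and with this SD, an alternative added after the values were seen, 48 pairs and no neighbouring pair were separable.

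Starts with a shared region occurred at low, middle and high paralog numbers. Shared regions were found at 3 of 8 genes of paralogs 1 to 3, at 8 of 15 of paralogs 4 to 8 and at 6 of 16 of paralogs 9 to 13. Each paralog group has only 2 to 4 genes. The highest shares were 3 of 4 genes with a region in groups 4 and 13 and 2 of 3 in 3 further groups. These lay near the 67.6% of all protein-coding genes, and groups 2, 11 and 12 had none. Across the 17 genes with a region, mean fold enrichment had a Spearman rho of −0.08 with paralog number, 0.02 in replicate 1 and −0.34 in replicate 2. Within single clusters of 5 such genes, rho was −0.70 in replicate 1 and −0.60 in replicate 2 for *HoxA*, 0.56 and −0.60 for *HoxC* and 0.20 and −0.67 for *HoxD*, so that the sign differed between replicates in *HoxC* and *HoxD*. These are descriptions across genes that share clusters and libraries, and the replicates themselves had a rho of 0.66 over the same 17 genes. Members of a paralog group were often called differently. *Hoxd1* had a shared region and *Hoxb1* did not, and *Hoxa13*, *Hoxc13* and *Hoxd13* had one and *Hoxb13* did not. These are calls of weak peaks and are not shown to be differences in openness.

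Seen as stretches of chromosome, the 4 clusters held 29 shared regions in 491.8 kb, a density of 5.90 per 100 kb, with 1.94% of bases covered. The genome as a whole had 3.73 shared regions per 100 kb and 2.12% of bases covered, so the clusters held more regions that together covered a slightly smaller share. Their median length was 325 bp, against 388 bp for all shared regions. *HoxD* held 11 regions or 11.4 per 100 kb, *HoxA* 8 or 7.60, *HoxC* 6 or 5.18 and *HoxB* 4 or 2.30. At *Hoxd13* and at *Hoxd8*, 1 peak of replicate 1 was split into 2 regions by the peaks of replicate 2. In covered bases the order of the first pair was opposite, and *HoxA* had 3.24%, *HoxD* 3.02%, *HoxC* 1.85% and *HoxB* 0.624%. No cluster region reached a mean fold enrichment of 10. A further 9 peaks in replicate 1 and 10 in replicate 2 had no counterpart, with a fold enrichment of at most 5.98 and 4.27.

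The regions were unevenly spread, as the maps of the clusters show. In *HoxB*, 117.5 kb from *Hoxb13* to *Hoxb5* held no shared region and only 1 peak in each replicate. The other long gaps covered 45.5 kb of *HoxC* from the start of *Hoxc13* past *Hoxc12* and *Hoxc11*, 38.7 kb of *HoxA* with the starts of *Hoxa9*, *Hoxa10* and *Hoxa11*, and 33.5 kb of *HoxD* over most of the *Hoxd4* and *Hoxd3* transcripts. A 26.3 kb gap at the anterior end of *HoxB* included *Hoxb1* and *Hoxb2*.

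**Figure D3:**
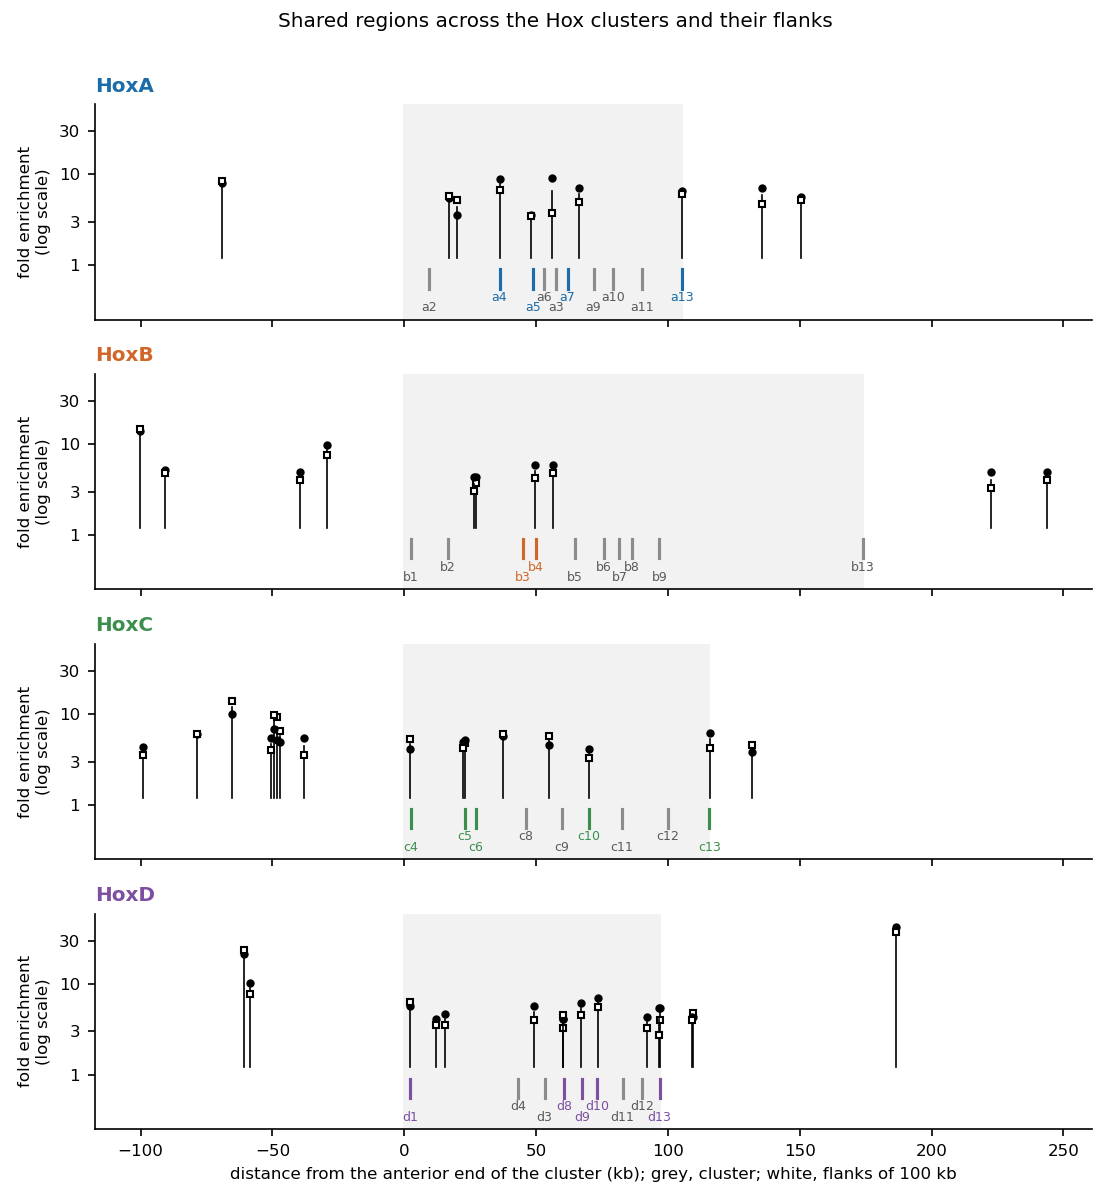
Shared regions over each cluster (grey) and 100 kb to each side, by distance from the anterior end in kb (horizontal axis), with the fold enrichment of replicate 1 (filled circles) and replicate 2 (open squares) on a log axis and stems up to the mean. Ticks below mark the principal starts of *Hox* genes, coloured where a shared region lies within 1 kb of any of its starts. Regions shown inside the clusters stay below a mean of 10, while the *Mtx2* and *Lnpk* promoters in the *HoxD* flanks reach 22.4 and 40.0.

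Most cluster regions lay at genes. Of the 29, 20 were within 1 kb of a *Hox* start, 6 had their replicate 1 summit in a coding exon and 6 in a UTR, and 9 were more than 1 kb from any protein-coding start. The highest of these 9 in *HoxA* was the *Hoxa3* region above (chr6:52211485-52211893), followed by chr6:52172520-52172875 in the *Hoxa3* UTR with 5.43 and 5.78, close to the start of the antisense transcript *Gm15050*. In *HoxB* the only such region, at chr11:96311771-96311983 with 5.98 and 4.78, was also the highest of the cluster and lay 6284 bp upstream of *Hoxb4*. In *HoxC* it was chr15:102981824-102982126 in a coding exon of *Hoxc9*, with 4.62 and 5.78, and in *HoxD* the highest was chr2:74715821-74716176, in introns of *Hoxd3* and *Hoxd4*, with 5.70 and 4.02. The others named here were chr6:52175330-52175505 with 3.53 and 5.28 in an intron of *Hoxa3*, chr2:74749651-74749706 with 4.62 and 3.52 in an exon of *Haglr*, and chr2:74672912-74673212 with 4.35 and 3.27 between *Hoxd13* and *Hoxd12*. The longest region was 443 bp in *HoxB*, at *Hoxb4*, 574 bp in *HoxC*, at *Hoxc6*, and 442 bp in *HoxD*, at *Hoxd10*.

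The 100 kb to either side of the clusters differed between clusters in how many regions they held. *HoxA* and *HoxD* were denser than their flanks, with 3 and 5 flanking regions or 1.5 and 2.5 per 100 kb and a ratio of cluster to flanks of 5.07 and 4.54. *HoxC* was about as dense as its flanks, which held 10 regions or 5 per 100 kb (ratio 1.04). These 10 include the region 144 bp upstream of *Hoxc13*, just outside the cluster bounds. *HoxB* was less dense than its flanks, which held 7 or 3.5 per 100 kb (ratio 0.657). This order reverses with *HoxB* ended at *Hoxb9*, which drops the long stretch to *Hoxb13* and the posterior flank regions. Pooled, the flanks held 25 shared regions in 800 kb, or 3.12 per 100 kb, and the ratio was 1.89. The pooled ratio was 0.665 when only regions more than 1 kb from any protein-coding start were counted, 9 in the clusters and 22 in the flanks, and 0.488 at q-values of at most 1e-10, with 3 and 10 regions. The regions of the clusters had a median mean fold enrichment of 4.86. Beyond the anterior ends there were 16 regions with a higher median of 7.76, and beyond the posterior ends 9 with a median of 4.56, below that of the clusters. The anterior side held more regions in *HoxB* (5 and 2) and *HoxC* (8 and 2), but fewer in *HoxA* (1 and 2) and *HoxD* (2 and 3). On the posterior side, no region other than the *Lnpk* promoter exceeded 5.92. Beyond *Hoxb1*, chr11:96397197-96397588 had 9.78 and 7.54, and chr11:96468123-96468833 in an intron of *Skap1* had 13.9 and 14.8. Beyond *Hoxc4*, a group of 4 regions lay 49351 to 52902 bases away, the highest with 6.79 and 9.80, and chr15:103101905-103102837 had 10.1 and 14.1. Beyond the anterior end of *HoxA*, chr6:52086106-52086579 had 8.15 and 8.55. Beyond *Hoxd1*, a region 60512 bases away had 10.3 and 7.79 and lay 1913 bp from the *Mtx2* start.

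The protein-coding genes next to the clusters gave a contrast within the same chromosomes. *Skap2*, *Calcoco1*, *Smug1* and *Mtx2*, a mitochondrial import gene, had a mean fold enrichment of 34.0, 44.8, 23.2 and 22.4 at their starts, and *Lnpk*, in the flank of *HoxD*, had 40.0. The homeobox neighbours *Evx1* and *Evx2* had no shared region at a start, nor did *Ttll6* and *Skap1*, although 2 weak regions of 4.35 and 4.78 and of 4.35 and 4.02 lay in a coding exon of *Evx2*. These 2 regions came from 1 peak of replicate 1, split by the peaks of replicate 2. Among the other homeobox genes descended from the same ancestral array, *Gsx1* had 14.4 and 13.1, *Pdx1* 5.70 and 5.78 and *Cdx2* 3.80 and 4.78, while *Cdx1*, *Cdx4* and *Gsx2* had none. The 9 cofactor genes examined, members of the TALE class of homeodomain genes whose proteins bind DNA together with Hox proteins, all had a shared region, against 67.6% of all genes. Their mean fold enrichment was at least 15.0 (*Meis3*), and its median of 25.2 was close to the 24.5 of all genes. *Meis1* reached 27.4 and 22.9 and *Pknox1* 45.6 and 45.3. Each of the 9 therefore lay above every *Hox* gene.

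**Figure D4:**
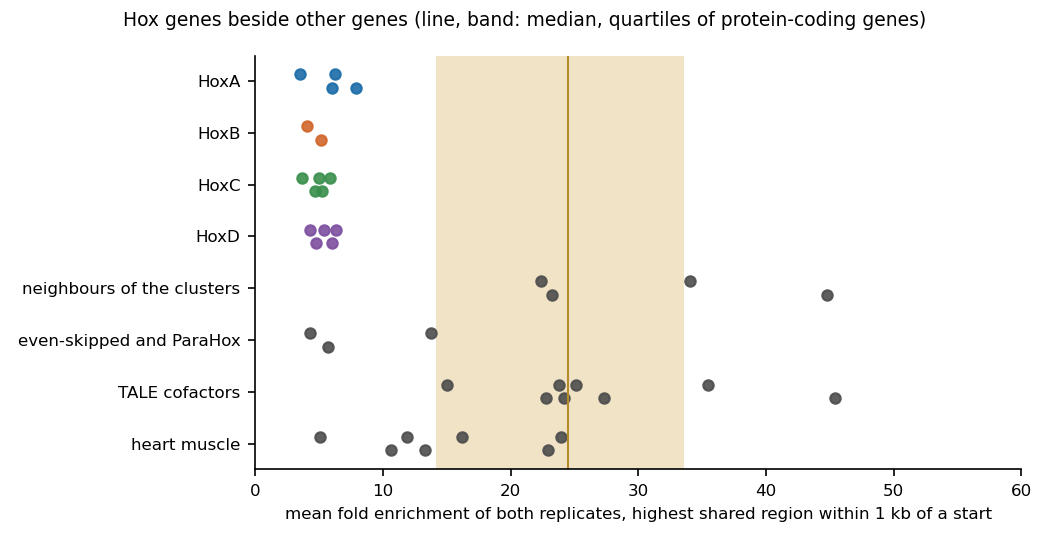
Mean fold enrichment of the highest shared region within 1 kb of a start (horizontal axis) for genes with a region in each cluster, the genes next to the clusters and 3 gene lists. The line and band give the median of 24.5 and the quartiles of 14.2 and 33.5 over all protein-coding genes. The *Hox* genes shown lie left of the band and the TALE cofactors shown lie in or beyond it.

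Among 46 other annotated genes with a start inside a cluster, 10 had a shared region within 1 kb of it, and 6 of these had a region other than the best one of a *Hox* gene. All 10 were among the 43 noncoding genes (23.3%), against 19.9% of the 25716 genes of the same noncoding types in the genome, or 28.7% when these are weighted to the mix of types in the clusters, so the share was near the background. These 6 were *Gm15050* (5.43 and 5.78), *Hoxaas3* (3.53 and 5.28), *Gm11536* (4.35 and 3.02), *Mir615* (4.89 and 4.27), *Hoxd3os1* (5.70 and 4.02) and *Gm14424* (4.07 and 3.52). The long noncoding RNA *Hotair* in *HoxC*, which lies between *Hoxc12* and *Hoxc11*, had no shared region, and neither had the 5 microRNA genes *Mir10a*, *Mir10b*, *Mir196a-1*, *Mir196a-2* and *Mir196b*, whose products target *Hox* transcripts.

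Matches to a pair of motifs were searched on both strands over the clusters and flanks. The DR5 retinoic acid response element, a pair of hexamer repeats 5 bases apart, matched 4 times inside the clusters and 6 times in the flanks. Of these 10 matches, 2 lay in a peak, compared with 5.97% of 9284 matches in the genome. They carried the same 17 letters, shown with the hexamers in capitals beside 2 matches that lay in no peak.
*HoxA*, intron of *Hoxa3*, chr6:52175533-52175549, minus strand: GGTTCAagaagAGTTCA
*HoxB*, alternative start of *Hoxb3*, chr11:96341236-96341252, plus strand: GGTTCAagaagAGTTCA
*HoxB*, flank beyond *Hoxb1*, chr11:96372776-96372792, plus strand: GGTTCAtagagAGTTCA
*HoxD*, near *Hoxd3*, chr2:74741540-74741556, plus strand: GGTTCAagcagAGTTCA
The match in the *HoxA* cluster lay in a replicate 2 peak of 5.28, 28 bases beyond the shared region, and the one in *HoxB* in a replicate 1 peak of 4.35, 205 bases beyond the shared region at the alternative start of *Hoxb3*. The match beyond *Hoxb1*, 6518 bases from its start, was in no peak. None of the 29 cluster regions held the motif in the 201 bases around the replicate 1 summit, against 0.188% of all shared regions. The core CTCF motif, searched as a single strict consensus, was likewise found in none of the 29, against 2.42% of all shared regions. It matched 1 time inside the clusters, in no peak. Both shares are so low that none among 29 regions is near this background, and other forms of the motifs were not searched. A match is a description of letters and not a binding site.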

How the data were processed

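ATAC-seq peak lists of both replicates were used as deposited. Per the study's methods and the submitters' processing notes, single-end reads were trimmed (Trim Galore 0.6.6, cutadapt), aligned to the mm10 build of GRCm38 (Bowtie2 2.4.2) and cleared of duplicates and poorly mapped reads (SAMtools 1.12), and the authors ran MACS2 on each replicate with no local background. In the deposited lists, fold enrichment is a ratio of the pileup at the summit, plus 1, to the background over the genome, plus 1, and the −log10 p and −log10 q values and the score, which is the −log10 q value times 10 cut to a whole number, are also those of the authors' peak caller. The score was not used further. The shortest deposited peak is 200 bp in both lists and the largest p-values are 0.000476 and 0.00104, which are longer and stricter than the read extension and the p limit in the study's methods, so the exact settings behind these lists are not known and a gene with no peak has none at the limit of these lists. Repeated sequence is underrepresented because such poorly mapped reads are missing. The lists give no read totals, so the depth of each replicate is unknown, and intervals for counting error were left out.

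Shared regions were made with bedtools 2.31.1 (intersect with at least 1 bp, then merge), so 1 long peak can contribute to several regions. A gene was assigned the shared region with the highest mean fold enrichment within 1 kb of any annotated start (GENCODE M21). Clusters ran from the first to the last base of their *Hox* genes, with flanks of 100 kb, and a region on a cluster's end was counted in the cluster. CpG content was taken over 1001 bp at the principal start, motifs were searched in GRCm38, and annotated starts were placed in its coordinates. With 1 group of 2 replicates no test was made, and genes were compared by the spread between replicates.

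The genes named were all *Hox* genes, per cluster the 3 highest regions, the longest and the 3 highest over 1 kb from a protein-coding start, other genes inside and next to the clusters, and lists of related homeobox genes and tissue markers. Individual values of 1 *Hox* gene, 1 cofactor gene and 1 flanking region are not reported here or plotted, but enter the counts and medians. These members and lists were chosen with earlier results of these data known. Alternatives were limits of 0.05 and 1e-10 on the q-value and of 1e-05 on the p-value, 50% reciprocal overlap, each replicate alone, windows of 500 bp and 2 kb, principal starts, summits in the window, and other cluster bounds and densities. The overlap code was tested on simulated data and found 3000 of 3000 overlaps among 4000 peaks per list. The software was pandas 2.3.3, NumPy 2.4.6 and Numba 0.67.0 under Python 3.11.15, with plots by Matplotlib 3.10.9.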

Additional observations from a re-analysis of the deposited data

How the results depend on the processing

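A q-value limit of 0.05 removed no peak. The count of 17 *Hox* genes with a shared region was 16 with p-values of at most 1e-05, 13 with a reciprocal overlap of 50%, 15 within 500 bp, 19 within 2 kb, 14 at principal starts, 16 with both summits in the window and 18 to 21 in single replicates, and it dropped to 3 with q-values of at most 1e-10, where the clusters also kept 3 of their 29 regions because fewer peaks enter. The share of all protein-coding genes, 67.6%, was 67.2%, 66.3%, 66.4%, 69.3%, 64.2% and 66.1% under the first 6 of these settings in the same order, 68.6% to 68.8% in single replicates and 62.6% with q-values of at most 1e-10, so *Hox* genes had the lower share in each. Median mean fold enrichment at *Hox* starts, 5.26, was 4.65 to 5.43 in single replicates, 5.87 with the reciprocal overlap and 7.88 with q-values of at most 1e-10, where weak peaks are left out. The rho with paralog number, −0.08, ran from −0.25 to 0.02 under these settings, in which replicate 2 alone gave −0.23 over its 18 genes, against −0.34 in replicate 2 over the 17 genes with a shared region, and q-values of at most 1e-10 left too few genes to compute it.

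The density of clusters over flanks, 1.89, was 1.63 with p-values of at most 1e-05, 1.55 with the reciprocal overlap, 1.72 to 1.92 in single replicates, 1.68 with flanks of 50 kb, 1.39 in covered bases, 2.43 with *HoxB* ended at *Hoxb9*, and below 1 with q-values of at most 1e-10 (0.488) and for regions over 1 kb from a protein-coding start (0.665). The last setting leaves out the promoters by construction, and the cause of the other shifts was not tested. No paired analysis was possible because all samples belong to 1 group. With 2 replicates and unknown depth, a *Hox* start without a peak is one not called in these lists and is not shown to be closed.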
